A study of Drosophila melanogaster with 12 samples.

Results

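The 32 genes described here encode core parts of the cell division cycle and of DNA replication in *Drosophila melanogaster*. They were chosen by name, as a list of cyclins, kinases, mitotic regulators, origin and helicase proteins and enzymes of nucleotide supply, and the rule uses no measured value. All 32 were present in both count tables, out of 10358 genes in the gut table, 11056 in the fat body table and 10005 in both. None had 0 counts in any library.

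A cell enters division through the G1 cyclins and the E2F transcription factors, which switch on the genes of DNA synthesis, licenses its origins with the origin recognition complex, Cdc6 and the Cdt1 protein encoded by *dup*, and loads the Mcm helicase that unwinds them. Cyclins A, B and B3 with Cdk1, which the phosphatase String activates, then drive mitosis. The anaphase-promoting complex, which the spindle checkpoint holds back, ends it. In the adult fly gut the intestinal stem cells are the dividing cells, while enterocytes and the cells of the adult fat body are postmitotic and polyploid. In the female abdomen the ovary holds the other large population of cells with an active cell cycle, and it stores mRNAs of many of these genes in the egg.

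The libraries were made from guts and fat bodies dissected from adult mated females that carried *UAS-PntRNAi*, which targets the ETS activator *pnt* (pointed), under the *S106* GeneSwitch driver, in the outbred, *Wolbachia*-free Dahomey background with the *w1118* mutation. GeneSwitch drivers act when flies eat RU486, and *S106* acts in both gut and fat body. Induced flies were fed RU486 for 6 days, and control flies of the same genotype received food with the ethanol vehicle. There were 12 libraries, 3 in each of 4 groups, which were induced gut, control gut, induced fat body and control fat body, and each was made from organs pooled from 12 flies. The labels give 200 µM RU486 for every sample, controls included, so induction was taken from the induction label of each sample. Flies had been mated for 48 h. Guts were freed of tubules, and what was taken as fat body was the abdomen left once the reproductive anatomy had been taken out, so that it also held cuticle-associated tissue. No library came from flies that ate RU486 without the RNAi transgene, so the inducer and the RNAi cannot be told apart. In such bulk samples fewer cells of a type and less RNA per cell cannot be told apart either. Replicates were separate pools, and the p-values measure the spread between these pools. Replicate numbers below only name the libraries and pair none of them.

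Libraries held between 5916313 and 8889127 counts in induced guts, from 7172991 to 10254951 in control guts, from 4932359 to 8304564 in induced fat bodies and from 7310630 to 9580571 in control fat bodies. Levels are given as CPM, counts divided by a library size that was adjusted within each tissue. The targeted gene *pnt* had 22, 22 and 24.4 CPM in induced guts, against 29.2, 31.8 and 23.8 CPM in control guts, and 8.06, 10.2 and 10.8 CPM in induced fat bodies, against 11.1, 11.2 and 13.4 CPM in control fat bodies. Its log2 fold changes of -0.31 (adjusted p = 0.838) and -0.30 (adjusted p = 0.986) were not significant in gut or in fat body. Enterocyte markers summed to between 31050 and 52710 CPM in gut libraries and to between 35.3 and 101.9 CPM in fat body libraries. The fat body markers summed to between 12450 and 20710 CPM in fat body and between 724 and 839 CPM in gut libraries, although *Lsp2*, a larval serum protein gene on that list, was at 4.54 CPM or less throughout. That list was mixed. Of its 9 genes tested in gut against fat body, 5 were lower in gut and 3 higher in control flies at 10% FDR. In induced flies 5 were lower and 2 higher. Of all 10005 genes, 1829 were lower and 1995 higher in control flies, and 2276 lower and 2103 higher in induced flies. Spermatheca markers summed to between 292 and 582 CPM in fat body libraries (3 genes) and between 22 and 33 CPM in gut libraries (2 genes). Muscle markers summed to between 2313 and 5310 CPM in fat body and between 1576 and 1819 CPM in gut libraries. The part of these tissues in the differences between gut and fat body was not tested. A single library stood apart in each tissue. Control gut 2 was the highest of the 6 gut libraries for 30.2% of all genes and the lowest for 27.3%, and control fat body 3 was the highest of 6 for 31.4% and the lowest for 29.1%.

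Levels within the list were compared per kb of exon, so that genes of different length could be ranked. In induced guts *geminin*, an inhibitor of Cdt1 that prevents a second round of licensing, had the highest mean (25 CPM per kb). It was followed by *RnrS*, the small subunit of ribonucleotide reductase, which makes deoxynucleotides (23.2), and *Dp*, the partner of E2F1 on DNA (19.2). In control guts the order was *RnrS* (29.4 CPM per kb), *CycB* (26.9) and *geminin* (25.7). In induced fat bodies *CycA* had the highest mean (70.3 CPM per kb), ahead of *PCNA*, the sliding clamp of the replication fork (60.7), and *geminin* (53.9). The same 3 genes led in control fat bodies in the reverse order, with *geminin* at 43.7, *PCNA* at 40.6 and *CycA* at 37.5 CPM per kb. These orders were not tested against the spread between libraries. *Mcm3* and *Cdc6* were the lowest in all 4 groups, with means over the 6 libraries of a tissue of 0.579 and 0.672 CPM per kb in the gut and 0.567 and 1.34 CPM per kb in the fat body. *Mcm3* was thus below the other subunits of the same helicase, of which *dpa* (the fly Mcm4) had 1.93 CPM per kb in gut and 2.47 CPM per kb in fat body. Its counts ranged from 2 to 63 in the gut and from 4 to 18 in the fat body, and those of *Cdc6* from 1 to 72 and from 10 to 40, so single values of both genes are coarse.

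The first question was whether induction of *PntRNAi* changed these genes in the gut. None of the 32 passed 10% FDR by edgeR's quasi-likelihood test, where 0.0483% of all 10358 gut genes did, none had an unadjusted p under 0.05, where 5.43% of all genes did, and DESeq2 called none. Every one of the 32 log2 fold changes was nevertheless below 0, between -1.88 for *Mcm3* and -0.04 for *Dp*, with a median of -0.72 against -0.06 over all genes. The same held for all 32 when counts were scaled by DESeq2 size factors or by library totals alone, and for 31 of 32 with limma on the variance-stabilised values. The size of the median depended on single libraries. It was -0.465 without induced gut 1 and -1.111 without induced gut 2. Without control gut 2 it was -0.008 (all genes -0.019), with 18 members below and 14 above 0.

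**Figure D1:**
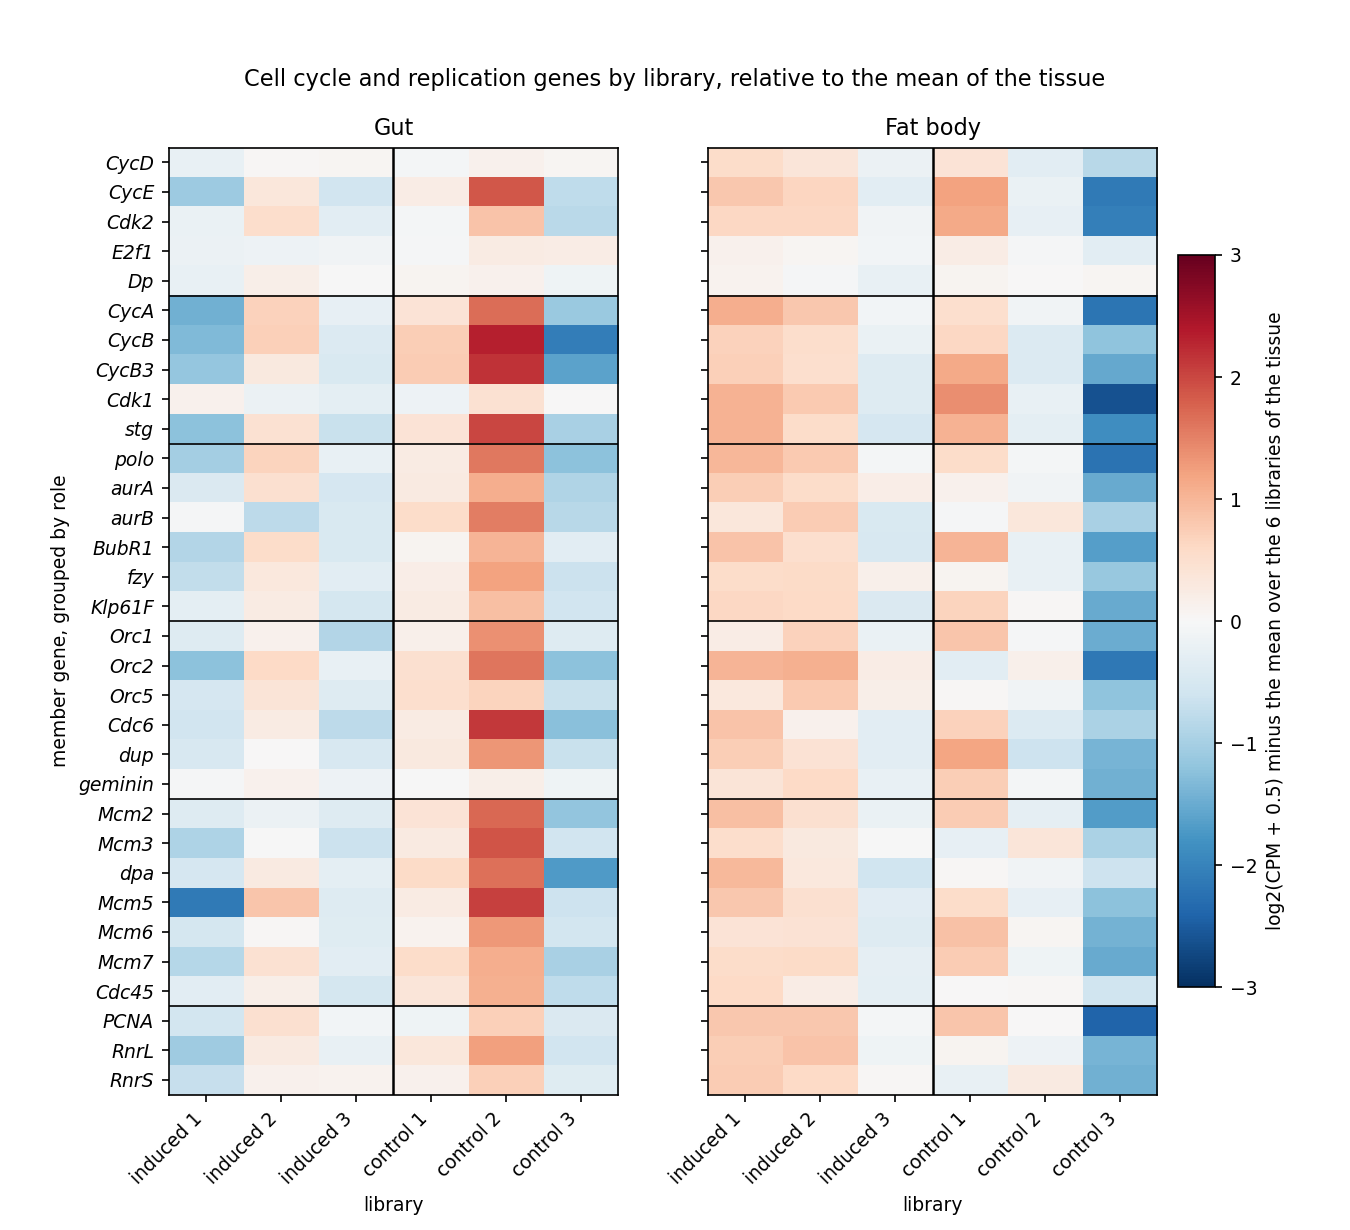
Level of the 32 members in each of the 6 gut libraries (left panel) and 6 fat body libraries (right panel), as log2(CPM + 0.5) minus the mean of that gene over the 6 libraries of the tissue, with red above and blue below the mean, induced libraries left of the black line and control libraries right of it. Control gut 2 was the highest gut library for 31 of 32 members and control fat body 3 the lowest fat body library for 31 of 32, whereas *Dp* and *E2f1* hardly varied in either tissue.

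*CycB* varied most between gut libraries (SD 1.59 on the log2 scale). The gene (FBgn0000405, chromosome arm 2R from 22803521 to 22806948 of genome release 6) encodes the main mitotic partner of Cdk1 and had 13.8, 57.8 and 26.4 CPM in induced guts, against 59.2, 179 and 7.95 CPM in control guts. The highest and the lowest of the 6 values were both control libraries, control gut 2 and control gut 3, and the 3 induced libraries lay between them. Its log2 fold change was -1.32 ± 0.92 (SE), adjusted p = 0.838, with a 95% interval of -3.44 to 0.80. *CycA* (FBgn0000404, chromosome arm 3L from 11826719 to 11833578), whose cyclin acts in S phase and early mitosis, had 10.4, 47.1 and 24.3 CPM in induced guts, against 38.7, 93.2 and 13 CPM in control guts, and its log2 fold change was -0.82 ± 0.71 (SE), adjusted p = 0.852. *CycB3*, which acts late in mitosis, had 3.04, 9.2 and 5.23 CPM in induced guts, against 13, 35.1 and 2.1 CPM in control guts (log2 fold change -1.51). *stg*, the Cdc25 phosphatase that activates Cdk1, followed the same order of control libraries with 2.68, 9.65 and 4.15 CPM in induced guts, against 9.33, 29.4 and 3.3 CPM in control guts (log2 fold change -1.34). For all 4 genes control gut 2 was the highest library and the groups overlapped. *Cdk1* itself did not follow them and had 15, 12.1 and 11.1 CPM in induced guts, against 12.2, 19 and 13.8 CPM in control guts (log2 fold change -0.24).

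Among the G1/S regulators *CycD*, *Dp* and *E2f1* were among the steadiest members in the gut (SD 0.124, 0.152 and 0.191 on the log2 scale). *CycD* (FBgn0010315, chromosome arm X from 15906822 to 15909676), the cyclin that links growth signals to the cycle, had 20, 24.1 and 24.5 CPM in induced guts, against 22.3, 25.5 and 24.3 CPM in control guts, a log2 fold change of -0.07 ± 0.20 (SE), adjusted p = 0.9447 and a 95% interval of -0.53 to 0.39. *Dp* had 53.2, 69.96 and 60.8 CPM in induced guts, against 65, 67.3 and 56.4 CPM in control guts. The groups overlapped widely in both genes. *E2f1* (FBgn0011766, chromosome arm 3R from 21620304 to 21660871), the activating E2F of the fly, had 37.3, 38.2 and 39.4 CPM in induced guts, against 41.8, 50.5 and 49.9 CPM in control guts. It was the only member whose induced guts all lay below the control guts, a pattern found in 4.81% of all gut genes, and its log2 fold change of -0.31 ± 0.19 (SE), adjusted p = 0.836 did not pass the test. *CycE*, the cyclin that starts S phase with Cdk2, was unlike these with 3.21, 9.53 and 4.82 CPM in induced guts, against 8.71, 28.3 and 4.2 CPM in control guts (log2 fold change -1.22). *Cdk2* had 9.29, 15.7 and 8.58 CPM in induced guts, against 10.3, 19.96 and 6.0 CPM in control guts (log2 fold change -0.12).

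**Figure D2:**
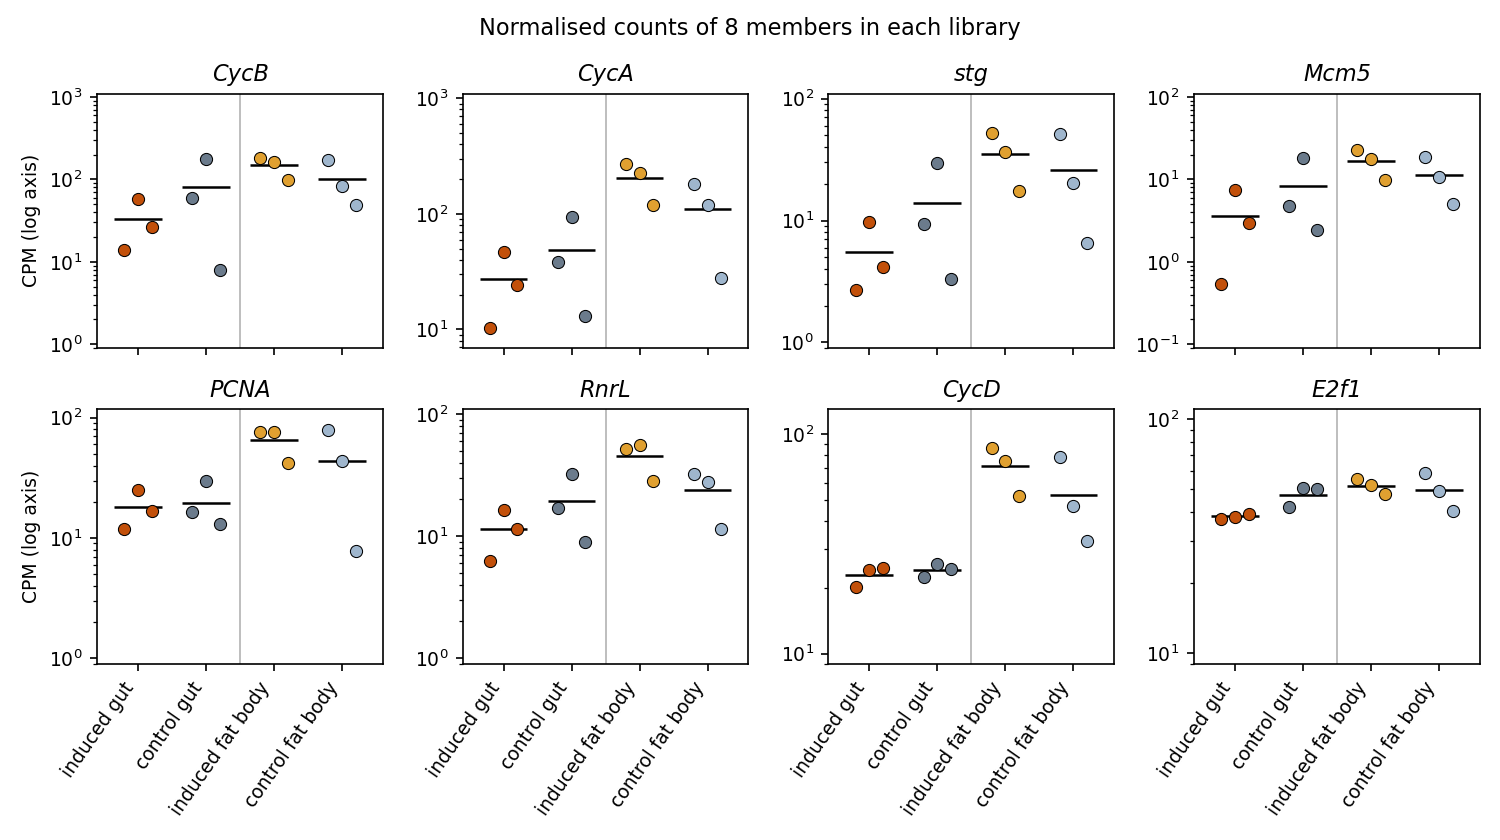
CPM on a log axis of *CycB*, *CycA*, *stg*, *Mcm5*, *PCNA*, *RnrL*, *CycD* and *E2f1*, with 1 point per library, in the order of replicates 1 to 3 within each group, and a line at the group mean (n = 3). Control gut 2 was the highest gut library in all 8 panels. CPM were scaled within each tissue, so gut and fat body are not on a common scale. In the panel of *CycD* the fat body libraries all lay above the gut libraries. When scaled over both tissues, its highest gut value was 28.3 CPM (induced gut 3) and its lowest fat body value 28.7 CPM (control fat body 3).

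The largest fitted changes in the gut were those of *Mcm3* and *Cdc6*, from the helicase and the licensing genes. *Mcm3* had 0.357, 1.11 and 0.536 CPM in induced guts, against 1.47, 5.47 and 0.60 CPM in control guts, a log2 fold change of -1.88 ± 0.83 (SE), adjusted p = 0.836 and a 95% interval of -3.79 to 0.03. *Mcm5* (FBgn0017577, chromosome arm 3R from 10788524 to 10791150) had 0.536, 7.43 and 2.95 CPM in induced guts, against 4.79, 18 and 2.4 CPM in control guts, with its lowest value in induced gut 1. *Mcm2* had 2.68, 3.22 and 2.68 CPM in induced guts, against 5.03, 13.2 and 1.35 CPM in control guts. For each of these helicase subunits control gut 2 was the highest library and the groups overlapped. Log2 fold changes of the other helicase genes were -0.95 for *dpa*, -0.85 for *Mcm6*, -0.64 for *Mcm7* and -0.67 for *Cdc45*, whose protein joins the Mcm ring in the active helicase. Among the licensing genes *Cdc6*, which loads the Mcm ring with Cdt1, had 0.536, 1.33 and 0.402 CPM in induced guts, against 1.35, 6.25 and 0.15 CPM in control guts (log2 fold change -1.76). *Orc1*, *Orc2* and *Orc5*, subunits of the origin recognition complex, had log2 fold changes of -1.01, -0.91 and -0.41. *dup* had -0.88, while its inhibitor *geminin* was among the steadiest members (SD 0.137 on the log2 scale), with 26.1, 29.5 and 24.1 CPM in induced guts, against 26.8, 30.5 and 24.4 CPM in control guts (log2 fold change -0.04).

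The mitotic kinases and checkpoint genes had log2 fold changes between -1.74 and -0.50 in the gut. *aurB*, the kinase that corrects chromosome attachment and acts in cytokinesis, had the largest, with 0.893, 0.333 and 0.536 CPM in induced guts, against 1.6, 3.64 and 0.30 CPM in control guts, from counts between 2 and 42. *polo*, a kinase of mitotic entry and exit, had 8.21, 27.7 and 14.7 CPM in induced guts, against 20.6, 52.9 and 7.05 CPM in control guts (log2 fold change -0.67). For both genes the control group held the highest and the lowest of the 6 libraries. The remaining values were -0.50 for *aurA*, the kinase of centrosome maturation, -0.54 for *BubR1*, of the spindle checkpoint, -0.66 for *fzy*, the Cdc20 activator of the anaphase-promoting complex, and -0.52 for the spindle motor gene *Klp61F*. Of the genes of the clamp and of nucleotide supply, *PCNA* (FBgn0005655, chromosome arm 2R from 20261754 to 20262883) had 12, 25.1 and 16.9 CPM in induced guts, against 16.3, 29.8 and 13 CPM in control guts (log2 fold change -0.13). *RnrL*, the large subunit of ribonucleotide reductase, had 6.25, 16.5 and 11.5 CPM in induced guts, against 17.2, 32.5 and 9.0 CPM in control guts (log2 fold change -0.77). *RnrS* had 24.5, 43.5 and 42.9 CPM in induced guts, against 44.1, 65.6 and 30.7 CPM in control guts (log2 fold change -0.34). All 3 genes were highest in control gut 2.

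The members varied more between gut libraries than the typical gene did. Their median SD over the 6 libraries was 0.76 on the log2(CPM + 0.5) scale, against 0.38 over all genes. Lists described below shared this in part, with medians of 0.69 for other mitosis genes and 0.60 for other replication genes. The median was 0.39 for other cell cycle regulators, 0.35 for progenitor markers and 0.95, above the members, for germline and ovary genes. Control gut 2 was the highest library for 31 of 32 members, and the lowest was control gut 3 for 15 members and induced gut 1 for 14. The mean of the 32 genes on that scale was 2.46, 3.40 and 2.78 in induced guts, against 3.40, 4.38 and 2.40 in control guts. Control gut 2 exceeded control gut 3 by a median ratio of 4.18, between 1.01 for *E2f1* and 41.7 for *Cdc6*. Without control gut 3 the median log2 fold change was -1.101, and *CycB3* (-2.01, adjusted p = 0.0883), *aurB* (-2.21, adjusted p = 0.0908) and *Mcm2* (-1.66, adjusted p = 0.0898) were called lower in induced guts, where 6.26% of all genes were called lower.

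Related genes outside the list were also mostly highest in control gut 2. None of 21 other cell cycle regulators, 32 other replication genes or 41 other mitosis genes was called in the gut by edgeR or by DESeq2. In each list 1 gene had an unadjusted p under 0.05 by edgeR, where 5.43% of all genes did. Control gut 2 came highest for 15 of the 21 regulators, 28 of the 32 replication genes and 34 of the 41 mitosis genes. Markers of intestinal stem cells and enteroblasts did not single out that library. *esg*, a transcription factor of these progenitors, had 42.1, 60.4 and 53.5 CPM in induced guts, against 54.4, 42.8 and 40.6 CPM in control guts. The Notch ligand gene *Dl* had 7.14, 12.9 and 7.64 CPM in induced guts, against 10.1, 12.7 and 11.8 CPM in control guts. Over the 9 progenitor markers measured, control gut 2 was the highest library for 1, and the sum ranged from 94.5 to 137 CPM in induced guts and from 112 to 138 CPM in control guts.

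Markers of the germline and ovary shared the order of the control guts with the members in part. *osk*, which localises the germ plasm in the egg, had 8.39, 38.6 and 36.3 CPM in induced guts, against 37.8, 68.7 and 5.55 CPM in control guts. The germline helicase gene *vas* had 1.96, 8.32 and 3.75 CPM in induced guts, against 4.54, 17.5 and 1.5 CPM in control guts, and the translational regulator *nos* had 4.46, 12.2 and 3.35 CPM in induced guts, against 4.91, 25.6 and 2.85 CPM in control guts. For all 3 genes control gut 2 was the highest library and control gut 3 the lowest. Of the 27 germline and ovary genes, control gut 2 was the highest library for 19 and control gut 3 the lowest for 18. Others of the list went the other way. Induced gut 3 was the highest library for 5 genes and had the highest list mean on the log2(CPM + 0.5) scale, which was 2.36, 3.44 and 3.68 in induced guts, against 2.94, 3.63 and 1.82 in control guts. None of the 27 was called in the gut. By edgeR 4 had an unadjusted p under 0.05, all higher in induced guts, where 5.43% of all genes had such a p. Induced guts lay above all control guts for 2 of the 27, and for 557 of all 10358 gut genes. The log2 fold change was below 0 for 19 of 27 (median -0.22). The sum of the list ranged from 292 to 1230.5 CPM in induced guts and from 276 to 697 CPM in control guts, and the highest sum, in induced gut 3, held 317 CPM of *Vm34Ca*, an eggshell gene chosen after its values were seen. The defining genes *osk*, *nos*, *vas*, *bam* and *grk* were above 0 in all 12 libraries, and 3 genes of the list were at 0 in control gut 3. The part of these transcripts in the levels of the members was not tested.

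**Figure D3:**
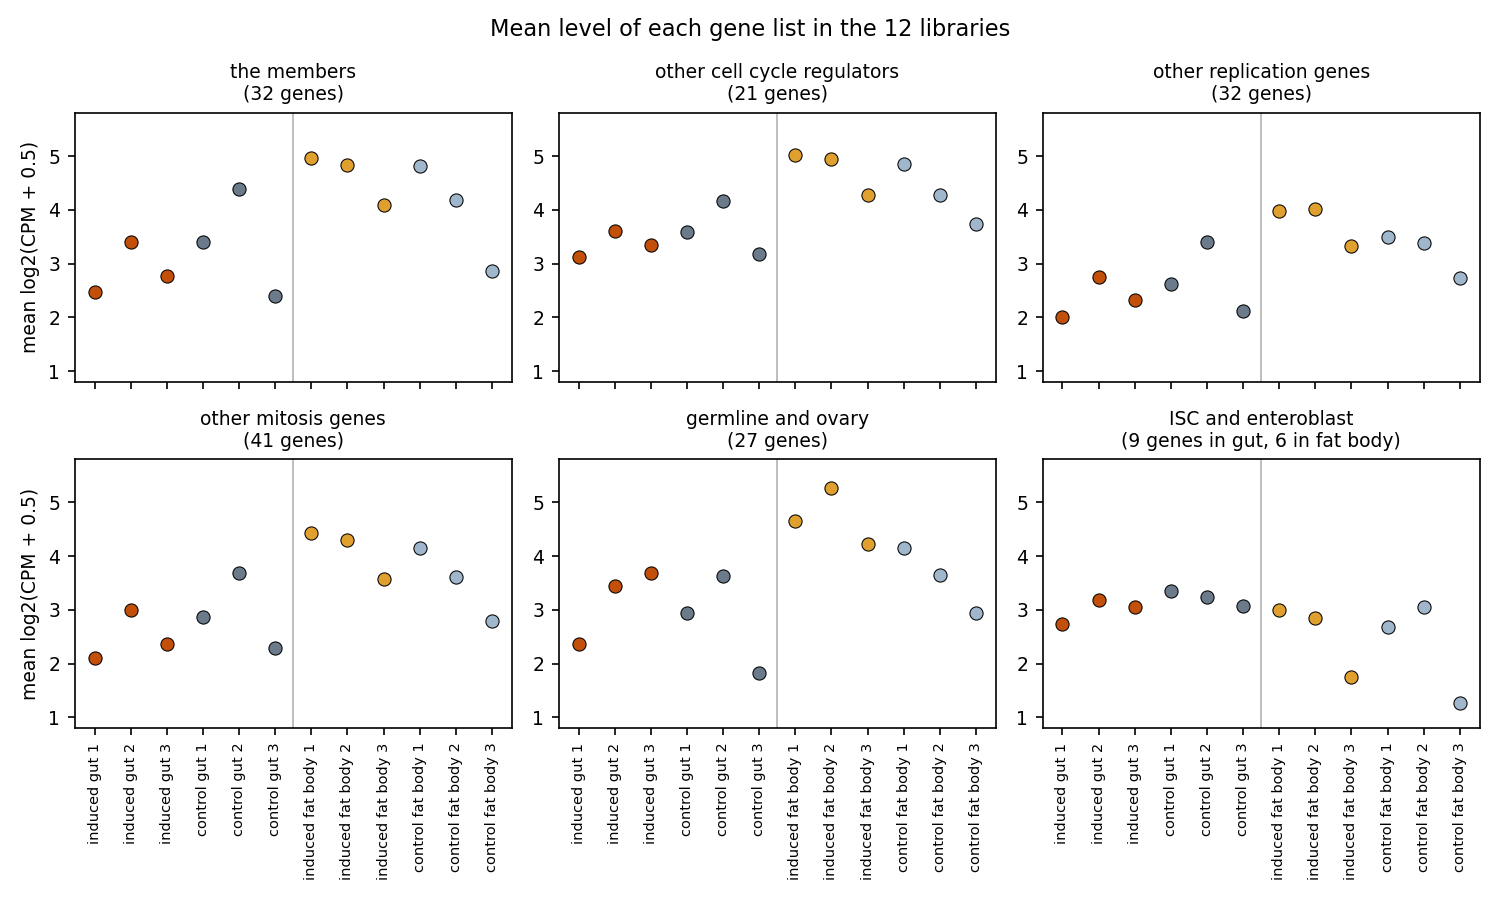
Mean log2(CPM + 0.5) of 6 gene lists in each of the 12 libraries, 1 point per library, with gut libraries left and fat body libraries right of the grey line and induced before control libraries. In the gut the members were highest in control gut 2 (4.38), as were the other regulators, replication and mitosis genes. The stem cell and enteroblast markers stayed between 2.73 and 3.36 in the gut. In the fat body the members were lowest in control fat body 3 (2.87), as were the other regulators, replication and mitosis genes. The germline and ovary list (2.95) and the stem cell and enteroblast list (1.27) were lowest in that library as well.

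In the fat body the question was the same. None of the 32 genes passed 10% FDR, where 0% of all 11056 genes did (302 of them, 2.73%, had an unadjusted p under 0.05, and DESeq2 called 16), and DESeq2 called no member. The log2 fold changes were above 0 for 31 of 32 members, between -0.10 for *Dp* and 1.38 for *Orc2*, with a median of 0.43 against -0.05 over all genes. *Dp* was above 0 as well when counts were scaled by library totals alone, a scaling that moved the median of all genes to 0.12. Here too the size depended on single libraries. The median was 0.256 without induced fat body 1 and 0.685 without induced fat body 3. Without control fat body 3 the median was 0.097 (all genes 0.019), with 18 members above and 14 below 0, and without control fat body 1 it was 1.1.

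In the fat body 2.73% of all genes passed the unadjusted threshold of 0.05 by edgeR's quasi-likelihood test, and of the 32 members only *fzy* did. It had 42.6, 42.8 and 32.1 CPM in induced fat bodies, against 30.4, 24.6 and 12.8 CPM in control fat bodies, and a log2 fold change of 0.79 ± 0.34 (SE), adjusted p = 0.986. Induced fat bodies all lay above control fat bodies for *fzy* and for *aurA*, *Orc2* and *Orc5*, 4 of 32 members, and the same was true of 3.98% of all genes. *Orc2* had 14.6, 14.9 and 8.11 CPM in induced fat bodies, against 5.42, 7.77 and 1.17 CPM in control fat bodies, and a log2 fold change of 1.38 ± 0.62 (SE), adjusted p = 0.986. *Orc5* had 17.1, 23.5 and 15.2 CPM in induced fat bodies, against 13.8, 12.6 and 5.58 CPM in control fat bodies (log2 fold change 0.80). *aurA* had 19.2, 16.8 and 12.9 CPM in induced fat bodies, against 12.4, 10.4 and 3.63 CPM in control fat bodies (log2 fold change 0.88). Control fat body 3 was the lowest library for each of the 4 genes, and without it their log2 fold changes were 0.51, 0.92, 0.50 and 0.51 in the order *fzy*, *Orc2*, *Orc5* and *aurA*.

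*CycA* and *CycB* were among the members with the highest level per kb in the fat body. *CycA* had 271, 224 and 120.2 CPM in induced fat bodies, against 181, 119 and 27.9 CPM in control fat bodies, a log2 fold change of 0.91 ± 0.62 (SE), adjusted p = 0.986. *CycB* had 182, 162 and 98.8 CPM in induced fat bodies, against 174, 84.2 and 48.7 CPM in control fat bodies, a log2 fold change of 0.53 ± 0.47 (SE), adjusted p = 0.986. The groups overlapped for both genes, with control fat body 3 below every other library. *CycB3* and *stg* had log2 fold changes of 0.21 and 0.43. *Cdk1*, steady in the gut, was the most variable member here (SD 1.46 on the log2 scale over the 6 libraries), with 59.7, 49.5 and 21.9 CPM in induced fat bodies, against 75.7, 24.6 and 4.28 CPM in control fat bodies. *geminin*, steady in the gut as well, had 61.2, 70.6 and 39.9 CPM in induced fat bodies, against 77.4, 44.7 and 16.9 CPM in control fat bodies. The 2 genes were highest in control fat body 1 and lowest in control fat body 3, so that the control group spanned the induced group. *CycD* had 86.3, 75.6 and 52 CPM in induced fat bodies, against 78.3, 47 and 32.7 CPM in control fat bodies (log2 fold change 0.44).

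Of the genes that were steady in the gut, *Dp* and *E2f1* were steady in the fat body too. *Dp* had 73.1, 66.6 and 58.9 CPM in induced fat bodies, against 72.2, 69.1 and 71.2 CPM in control fat bodies, and *E2f1* had 55.4, 52.3 and 47.6 CPM in induced fat bodies, against 58.7, 49.3 and 40.4 CPM in control fat bodies. The SD over the 6 libraries was 0.114 for *Dp* and 0.188 for *E2f1* on the log2 scale, against a median of 0.81 over the members and 0.40 over all genes. *PCNA* had 76.2, 76.7 and 42 CPM in induced fat bodies, against 78.6, 43.9 and 7.79 CPM in control fat bodies (log2 fold change 0.58). *RnrL* had 52, 56.4 and 28.1 CPM in induced fat bodies, against 32.4, 27.6 and 11.4 CPM in control fat bodies (log2 fold change 0.93), and *RnrS* had 0.80. The helicase genes *Mcm2*, *Mcm3*, *dpa*, *Mcm5*, *Mcm6*, *Mcm7* and *Cdc45* had log2 fold changes between 0.10 and 0.61, and all 7 overlapped between the groups. *CycE*, *Cdk2*, *polo*, *aurB*, *BubR1*, *Klp61F*, *Orc1*, *Cdc6* and *dup* lay between 0.22 (*dup*) and 0.83 (*polo*).

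**Figure D4:**
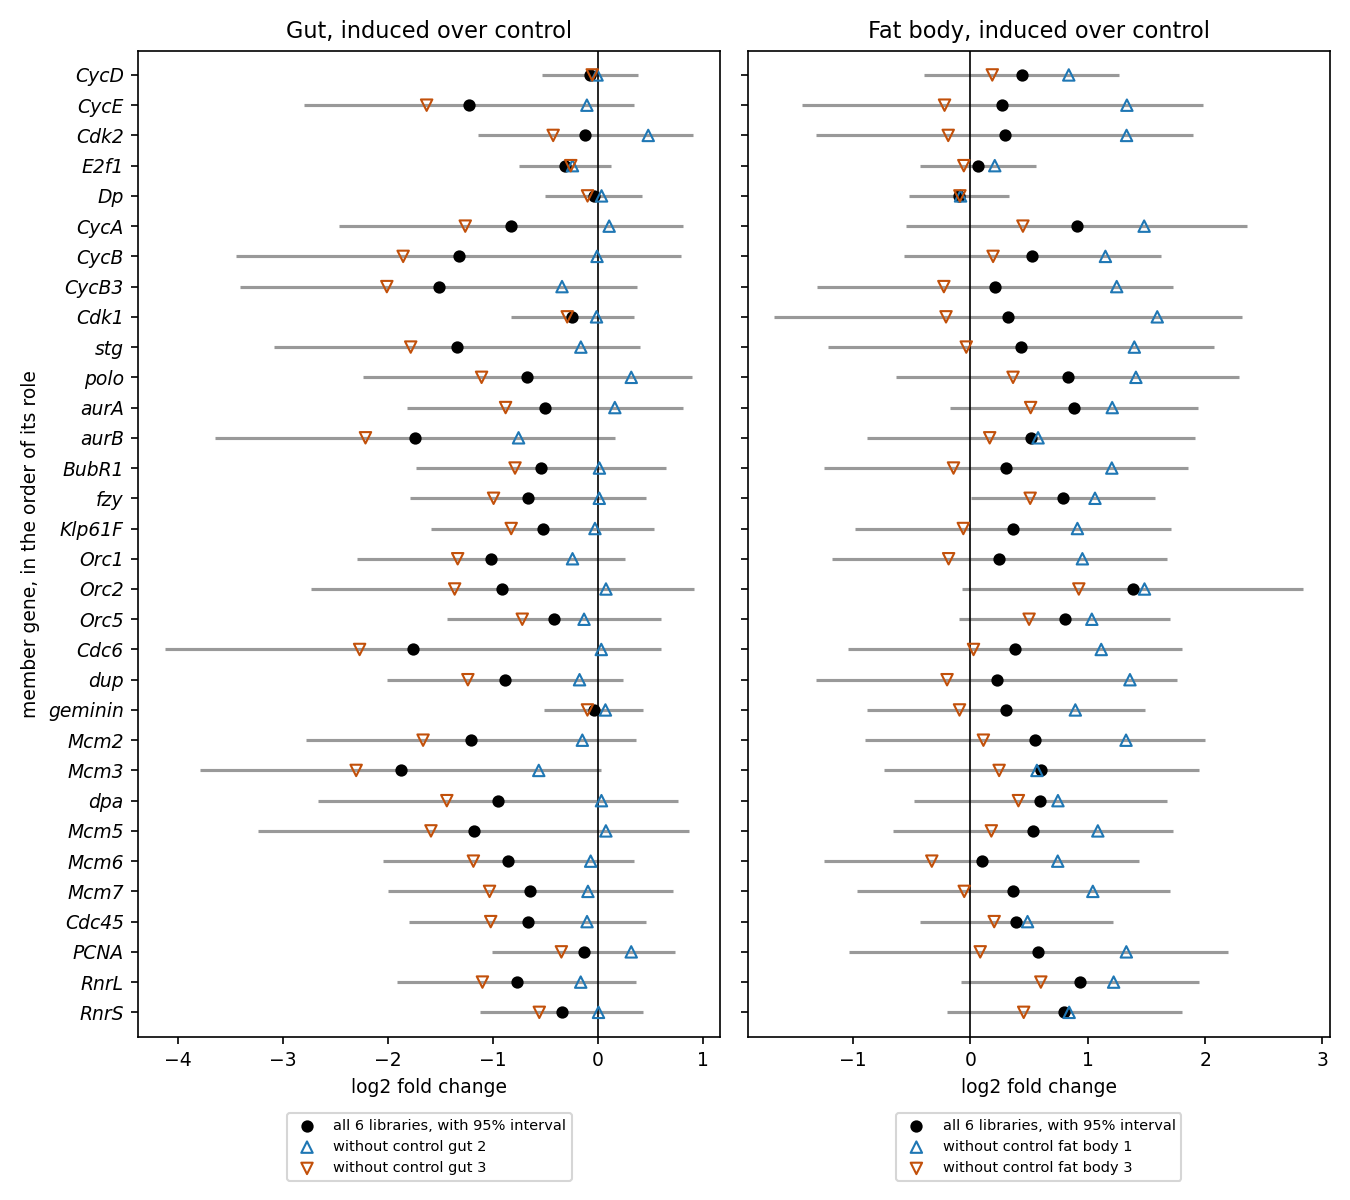
Log2 fold change of induced over control libraries for the 32 members in gut (left) and fat body (right), as black points with 95% intervals from all 6 libraries, with open triangles for the fits that left out 1 control library. Gut points all lay below 0 (under each of the 3 scalings), moved to a median of -0.008 without control gut 2 and to -1.101 without control gut 3, and fat body points moved to 0.097 without control fat body 3 and to 1.1 without control fat body 1.

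Control fat body 3 was the lowest fat body library for 31 of 32 members, while the highest was induced fat body 1 for 14, control fat body 1 for 13 and induced fat body 2 for 5. The mean of the 32 genes was 4.96, 4.83 and 4.09 in induced fat bodies, against 4.81, 4.18 and 2.87 in control fat bodies, on the log2(CPM + 0.5) scale. Control fat body 1 exceeded control fat body 3 by a median ratio of 4.61, between 1.01 for *Dp* and 17.7 for *Cdk1*. Other genes of the pathway were ordered in a similar way. None of the 21 other regulators, 32 other replication genes and 41 other mitosis genes was called by edgeR or DESeq2. In that order of lists 1, 4 and 1 had an unadjusted p under 0.05 by edgeR, where 2.73% of all genes did. Control fat body 3 was the lowest library for 13, 21 and 32 of them in the same order. Of the 27 germline and ovary genes 18 were lowest in that library, and their sum ranged from 870 to 1535.5 CPM in induced fat bodies and from 515 to 1050.2 CPM in control fat bodies. *osk* had 199.9, 179 and 95 CPM in induced fat bodies, against 98.9, 96 and 22.2 CPM in control fat bodies, *vas* had 63.5, 53.9 and 19.5 CPM in induced fat bodies, against 18.8, 21.2 and 4.93 CPM in control fat bodies, and *bam*, which starts germline differentiation, had 9.02, 10.1 and 4.48 CPM in induced fat bodies, against 8.38, 3.88 and 1.43 CPM in control fat bodies. None of the 27 was called, but 9 had an unadjusted p under 0.05 by edgeR, all higher in induced fat bodies, where 2.73% of all genes had such a p. The log2 fold change was above 0 for 25 of the 27, with a median of 0.97 against 0.43 over the members. Muscle markers went the other way, with all 10 below 0 (median -0.44) and none called. None of the 27 genes was at 0 in a fat body library. The progenitor gene *esg* was at 3.26, 4.99 and 0.726 CPM in induced fat bodies, against 2.71, 6.69 and 0.13 CPM in control fat bodies. Of the 6 progenitor markers measured in fat body, control fat body 3 was the lowest library for 4. The part of ovary transcripts in the levels of the members in the fat body was not tested.

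Gut and fat body were then compared within each treatment, in one fit over the 12 libraries and the 10005 genes measured in both, in which CPM were scaled over both tissues. In induced flies 17 of the 32 members (53.1%) were lower in gut than in fat body at 10% FDR and none was higher, where 22.7% of all genes were lower. DESeq2 called 21 members lower, where it called 21.8% of all genes lower. The median log2 difference, gut over fat body, was -1.54, against -0.05 over all genes, and 31 of 32 members lay below 0. In control flies 1 member was lower and none higher, where 18.3% of all genes were lower, DESeq2 called 2 (18.6% of all genes), and the median was -0.23. Scaling by library totals alone moved the median of all genes to -0.53 in induced flies and -0.25 in control flies and called 27 and 2 members lower, where 39.9% and 25.6% of all genes were called lower, with all 32 members below 0 in induced flies.

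All 6 genes of the mitotic kinases, spindle motor and checkpoint were among the 17. *fzy* had 7.62, 16.1 and 10.4 CPM in induced guts, against 37.6, 37.6 and 29 CPM in induced fat bodies, a log2 difference of -1.60 ± 0.46 (SE), adjusted p = 0.0158. *aurA* had 3.09, 6.15 and 2.94 CPM in induced guts, against 16.9, 14.7 and 11.7 CPM in induced fat bodies, a log2 difference of -1.81 ± 0.55 (SE), adjusted p = 0.0221. The values of the tissues did not overlap for either gene. *polo* (-2.17, adjusted p = 0.0386), *BubR1* (-1.70, adjusted p = 0.0597), *Klp61F* (-1.31, adjusted p = 0.0868) and *aurB* (-1.80, adjusted p = 0.0972) were called as well. Of the mitotic cyclins *CycA* had the largest difference in the list, with 11.9, 53.4 and 28 CPM in induced guts, against 239, 196 and 109 CPM in induced fat bodies, a log2 difference of -2.54 ± 0.77 (SE), adjusted p = 0.0220. *CycB3* (-2.27, adjusted p = 0.0532) and *stg* (-2.28, adjusted p = 0.0493) were called with it. *CycB* (-1.80, adjusted p = 0.111) and *Cdk1* (-1.40, adjusted p = 0.140) did not pass.

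**Figure D5:**
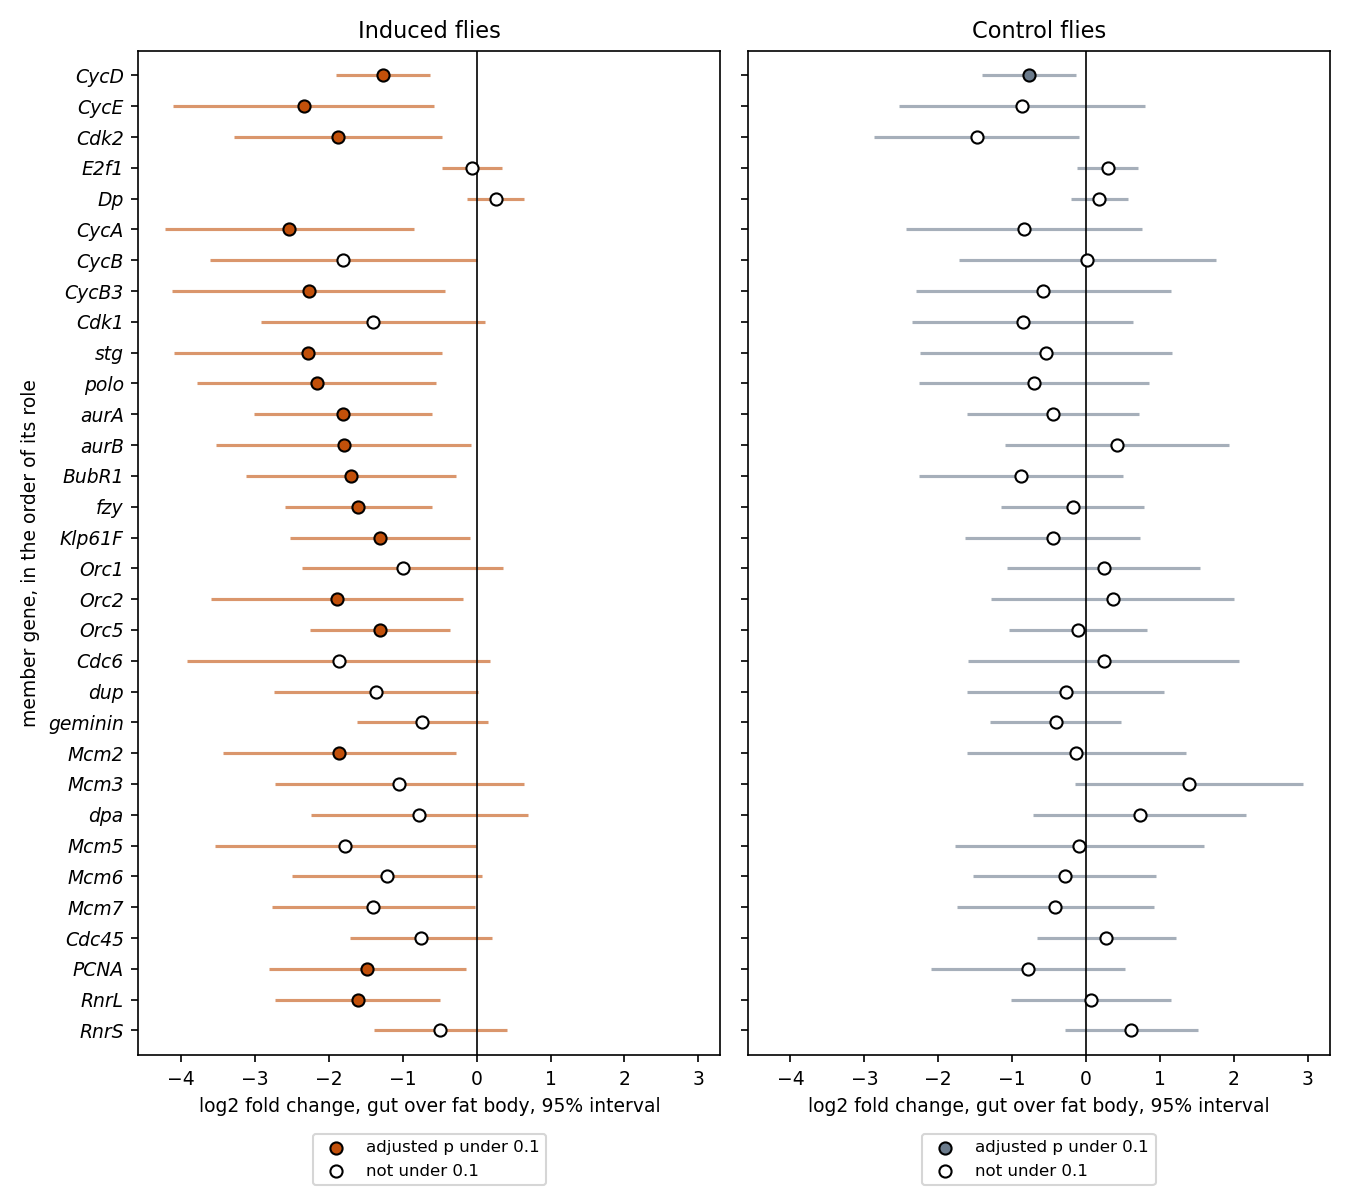
Log2 difference of gut over fat body for the 32 members in induced flies (left) and control flies (right), with 95% intervals and filled points where the adjusted p was under 0.1. In induced flies 17 members were called, all lower in gut, and in control flies only *CycD* was called. When scaled by library totals alone, *Dp* also lay below 0 in induced flies.

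Among the G1/S genes *CycD* had the smallest adjusted p of the list, with 23.1, 27.2 and 28.3 CPM in induced guts, against 76.1, 66.4 and 47 CPM in induced fat bodies, a log2 difference of -1.27 ± 0.30 (SE), adjusted p = 0.00475. *CycE* (-2.34, adjusted p = 0.0399) and *Cdk2* (-1.87, adjusted p = 0.0396) were lower in gut too, whereas *E2f1* (-0.06) and *Dp* (0.26) did not pass. Of the replication genes *RnrL* had 7.2, 18.7 and 13.3 CPM in induced guts, against 45.9, 49.5 and 25.4 CPM in induced fat bodies, a log2 difference of -1.61 ± 0.51 (SE), adjusted p = 0.0269. *Orc5* (-1.30), *Orc2* (-1.89), *Mcm2* (-1.86) and *PCNA* (-1.48) were called, with adjusted p = 0.0340, 0.0791, 0.0632 and 0.0803 in that order. The other 11 genes of origins, helicase and nucleotide supply, *Orc1*, *Cdc6*, *dup*, *geminin*, *Mcm3*, *dpa*, *Mcm5*, *Mcm6*, *Mcm7*, *Cdc45* and *RnrS*, had log2 differences between -1.87 and -0.49 and did not pass. Taking the libraries alone, the 3 induced guts lay below all 3 induced fat bodies for 27 of 32 members, all but *E2f1*, *Dp*, *dpa*, *Cdc45* and *RnrS*, where 30% of all genes did so.

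In control flies the gut libraries lay below all fat body libraries for 1 of 32 members, where 18.1% of all genes did so. That gene was *CycD*, with 25.2, 28.1 and 28 CPM in control guts, against 67.7, 42.7 and 28.7 CPM in control fat bodies, and a log2 difference of -0.77 ± 0.29 (SE), adjusted p = 0.0613. Control gut 2 and control fat body 3 were close to each other for this gene. It lost the call without control gut 1, control gut 2 or control fat body 1. *Cdk2* was next, with 11.6, 22 and 6.92 CPM in control guts, against 76.1, 30.2 and 7.98 CPM in control fat bodies (log2 difference -1.48), and its adjusted p, 0.1 when rounded, just missed the threshold. For *CycB* the control values were 66.8, 196 and 9.17 CPM in guts, against 150.3, 76.5 and 42.8 CPM in fat bodies, a log2 difference of 0.02 ± 0.80 (SE), adjusted p = 0.990, and for *PCNA* 18.4, 32.8 and 15.1 CPM in guts, against 67.9, 39.9 and 6.84 CPM in fat bodies. The highest control gut thus exceeded the lowest control fat body several-fold in both genes. Without control fat body 3, the low library, 6 members were lower in control guts (*CycD*, *Cdk2*, *Cdk1*, *BubR1*, *geminin* and *PCNA*), where 22.3% of all genes were lower. Without control gut 3, *CycD* was lower and *Mcm3* and *dpa* were higher, where 21.3% of all genes were lower and 22.6% higher. The share of the members called in these fits was below that of all genes. In induced flies the count of 17 was 5 without induced gut 1 (18.9% of all genes lower) or induced gut 3 (16.6%), a share of the members below that of all genes. It was 7 without induced fat body 1 (17.4%) or induced fat body 2 (17.3%), and 27 at most over the alternatives tried. *CycD*, *CycA*, *aurA*, *fzy* and *RnrL* kept the call without each of the 12 libraries in turn.

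In induced flies 12 of 21 other regulators, 18 of 32 other replication genes and 18 of 41 other mitosis genes were lower in gut at 10% FDR, none was higher, and the rest did not pass, where 22.7% of all genes were lower. In control flies 2, 4 and 4 were lower, a smaller share of each list than the 18.3% of all genes. In induced flies the largest among the regulators were *Cks30A*, a subunit of mitotic Cdk1 complexes (-3.05, adjusted p = 0.0133), *twe*, the Cdc25 phosphatase of meiosis (-2.67, adjusted p = 0.00884), *CycJ* (-2.50, adjusted p = 0.0205) and *Rbf2* (-2.18, adjusted p = 0.0390), an inhibitor of E2F. Among replication genes they were *Psf2*, a subunit of the GINS complex of the helicase (-2.35, adjusted p = 7.12e-05), *Mcm10* (-2.28), *PolA2* (-1.99) and *Prim2* (-1.98), which act in origin firing, in DNA polymerase alpha and in its primase. Among mitosis genes they were the securin gene *pim* (-3.30, adjusted p = 0.0204), the centromeric histone gene *cid* (-3.07), the kinetochore gene *Spc25* (-2.70) and *thr* (-2.60), whose protein acts with separase. In control flies *Psf2* (-2.74, adjusted p = 1.86e-05), *endos* (-0.81, adjusted p = 0.00609), an inhibitor of the phosphatase that opposes Cdk1, and the centrosome gene *cnn* (-1.06, adjusted p = 0.00433) had the smallest adjusted p of those named. The others named there were *dap* (-0.99), an inhibitor of cyclin E with Cdk2, the primase gene *Prim1* (-1.11), the GINS gene *Psf3* (-0.92), *Cdc7* (-0.88), whose kinase fires origins, *Spc25* (-1.71), the spindle checkpoint gene *mad2* (-1.30) and *cal1* (-1.06), which loads the centromeric histone, all with an adjusted p under 0.1. Of the 27 germline and ovary genes 16 were lower in gut in induced flies and 2 in control flies, and their part in the differences between tissues was not tested.

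An interaction term in the fit over both tissues tested whether induction acted differently in gut and fat body. The fitted difference, the gut effect minus the fat body effect, was below 0 for 31 of 32 members, with a median of -1.30 against -0.002 over all genes, and for all 32 under scaling by library totals. None passed 10% FDR, where 0% of all 10005 genes did (342 genes had an unadjusted p under 0.05, and DESeq2 called 13 genes and no member). Of the members 3 had an unadjusted p under 0.05, with interactions of -2.44 for *Mcm3*, -1.67 for *RnrL* and -1.42 for *fzy*, each at an adjusted p of 0.9995. The 95% interval was -2.80 to -0.04 for *fzy*, -4.32 to 0.67 for *CycB* and -3.96 to 0.57 for *CycA*, and those of the cyclins held 0. Without control gut 2 the median interaction was -0.51, and without control fat body 3 it was -0.93. A call in induced flies and none in control flies is therefore not shown to be a difference between the treatments for any member.

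The counting left some values less certain. *Mcm7* shares 2003 of its 2451 exon bases with an antisense RNA gene, *Cdk2* shares 1010 of 2299 with *CG17267* on the other strand, and *Klp61F* shares 424 of 3871 with *galene*. *Orc5* shares 190 of 1687 with *PolG2* and *GatC*, and *aurA* shares 153 of 1577 with *CG12213*. Some other members overlap other genes too. Whether reads were counted by strand is not given in the sources used here, so reads of these genes and of their partners may not be separate. No member had the same counts as another gene in every library.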

How the data were processed

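The series holds 12 RNA-seq libraries, and 3 in each group entered every fit. Per the file headers and the study's methods, the authors removed duplicate reads by molecular identifiers with Je, aligned them to genome release 6 with HISAT2 and made counts per gene with featureCounts, and genes that had no counts, or that another experiment of the study had not analysed, were dropped. Their variance-stabilised values (log2-like, from DESeq2, as deposited) served only an alternative. No value from the authors' own comparisons was used here.

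Counts were tested with edgeR 4.0.16 (quasi-likelihood test, TMM scaling, genes with at least 1 count, Benjamini-Hochberg adjustment over all genes, 10% FDR), within each tissue for induction and in one fit over 12 libraries for gut against fat body and the interaction. All adjusted p-values are from these fits. The study's methods name DESeq2 with independent hypothesis weighting, which was not run here. CPM used the TMM library sizes, and means and SDs were taken on log2(CPM + 0.5). Groups came from the labels, and symbols and exon lengths from Ensembl release 115 (BDGP6), whose symbols matched 10279 gut and 10969 fat body gene IDs. Another 15 gene IDs in each tissue, those of *Orc1* and *esg* among them, were older IDs named by the symbols in the study's supplementary information.

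DESeq2 1.42.0, limma 3.58.1, other scalings, a filter on low counts, 5% FDR, a joint fit for the induction contrasts and fits without each library were the alternatives. The members were chosen from a list of names, and members, marker lists and tests were chosen with earlier results of these data known. Named genes outside the list were up to 4 a list and comparison, those with the largest change among the genes called, and the defining markers of other cells. The biological coefficient of variation was 33.9% in gut and 39.8% in fat body. Simulated counts gave each gene 1 mean over all libraries of a fit, both tissues included for gut against fat body. Genes to change were drawn from all genes above a floor on the mean count, 100 for each fold. The test recovered 9% of genes changed 2-fold and 76% of those changed 4-fold in the gut fit (10354 genes), and 4% and 57% in the fat body fit (11047 genes). For gut against fat body in control flies it recovered 12% and 81% (10005 genes). That simulated fit called 99 genes where the data called 3824, so 12% and 81% do not give the recovery in the data. The members varied more than the typical gene, and their own recovery was not simulated.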

Additional observations from a re-analysis of the deposited data

How the results depend on the processing

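For induction in gut or fat body, every alternative that used all 6 libraries of a tissue called 0 members, as in the results above. With a library left out, 0 to 3 members were called in the gut and 0 to 0 in the fat body, and the members' median log2 fold change ranged from -1.111 to -0.008 in the gut and from 0.097 to 1.1 in the fat body. Gut against fat body in control flies had 1 member called. That count was 0 at 5% FDR and 2 with DESeq2 size factors, with library totals, with the filter on low counts and with DESeq2, and it ranged from 0 to 6 with a library left out. It was 0 without control gut 1 or control fat body 1, 3 without control gut 3 and 6 without control fat body 3. In induced flies the count of 17 was 10 at 5% FDR and 27 with library totals, and it ranged from 5 to 24 with a library left out, with 5 without induced gut 1 or 3 and 7 without induced fat body 1 or 2. The interaction had 0 members called in every alternative. Single members changed sign in 21 of 382 alternative values in gut, 22 of 384 in fat body, 40 of 512 for gut against fat body in control flies, 1 of 512 in induced flies and 5 of 512 for the interaction, and no called value turned round. The cause of these changes was not tested. No paired analysis was possible because the labels carry no replicate numbers, and the numbers that name libraries here follow accession order.

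Each group had 3 libraries, and the simulated recovery of 2-fold changes given under the processing was 9% in gut and 4% in fat body. It was for genes drawn from all those above the count floor, not for the members. A p that misses the threshold does not show that a gene stayed at its level. Low members such as *Mcm3*, *Cdc6* and *aurB* rested on a few counts in some gut libraries.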
